A study of Mus musculus with 5 samples.

Results

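Mouse 4-cell embryos that were made by nuclear transfer, knocked down for histone H3.3 and given H3.3 mRNA were compared here with untreated nuclear transfer embryos, gene by gene, with 1 RNA-seq library on each side. The genes compared were the 13144 of 22026 listed genes whose values averaged 1 FPKM or more over the 5 libraries of the series (FPKM counts sequenced fragments relative to transcript length and to the library's mapped total). In nuclear transfer an oocyte is emptied of its own chromosomes and receives a donor cell's nucleus. The donor cell, the agent of the knockdown, the way the mRNA was delivered and the number of embryos in a library are not stated in the labels. All 5 libraries came from B6D2F1 embryos, and total RNA was sequenced as single reads of 51 bases from Illumina TruSeq libraries. The H3.3 mRNA library and the untreated library both carry the NT label, as does a library with the H3.3 knockdown alone. A library labelled H3.2 mRNA, also made on the knockdown, and a luciferase library carry the label SCNT instead, and these 3 other libraries are given only beside the main pair. The labels of the H3.2 mRNA library conflict, since its title names H3.2 mRNA and its treatment tag H3.3 mRNA, and the title was used. Embryos with H3.3 mRNA differ from untreated ones by the knockdown, by the mRNA, by any handling that came with them and by library. The share of each in a difference cannot be told apart. With 1 library a side no difference has a replicate check, and no p-value or error is given.

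H3.3 is a variant of histone H3 that enters chromatin at any time of the cell cycle, by way of the HIRA complex at active genes and of DAXX with ATRX at repeats and telomeres, whereas H3.1 and H3.2 are put in behind the replication fork by the CAF-1 complex. The oocyte stores H3.3 as mRNA and protein, and after fertilization or nuclear transfer that maternal supply is laid down on the incoming chromatin. In the mouse, embryonic transcription has begun by the late 2-cell stage, so at the 4-cell stage stored maternal mRNA is being cleared while new embryonic transcripts accumulate.

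Both H3.3 genes were far lower with H3.3 mRNA than in the untreated library. H3f3a had 95.5 FPKM with H3.3 mRNA, against 783 FPKM in the untreated library, a difference of -3.02 on the log2(FPKM + 1) scale. H3f3b had 371 FPKM with H3.3 mRNA, against 4484 FPKM in the untreated library, a difference of -3.59. The H3.3 mRNA library thus listed these genes near the level of the knockdown, and no excess from the added mRNA appeared in either gene's value. In the other libraries H3f3a had 129 FPKM with H3.2 mRNA, 128 FPKM in the knockdown and 3503 FPKM with luciferase, and H3f3b had 292 FPKM with H3.2 mRNA, 535 FPKM in the knockdown and 2230.4 FPKM with luciferase. The sum of the 2 genes was 467 FPKM with H3.3 mRNA and 5266 FPKM in the untreated library, so that 8.86% of the untreated sum was left. The share left was 12.2% for H3f3a and 8.28% for H3f3b. The labels do not state the sequence of the added mRNA, and whether its reads would be assigned to either gene was not tested.

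The bases that separate H3.3 from H3.2 show how a read can be told apart. The coding bases for residues 85 to 92 (counted without the first methionine) are given 5′ to 3′, from the GENCODE M21 transcripts (GRCm38), with capitals for the codons 87, 89 and 90, where the residue differs between H3.3 and H3.2. H3f3a lies on chromosome 1, H3f3b on chromosome 11 and Hist2h3b, which encodes H3.2, on chromosome 3.
H3f3a: cagagtGCAgctATTGGTgctttg
H3f3b: caaagtGCAgccATCGGTgccctt
Hist2h3b: cagagcTCGgccGTCATGgcgctg
The 411-base coding sequences of H3f3a and H3f3b encode the same residues but share only 316 bases (76.89%), and their longest identical run was 23 bases, shorter than a read of 51 bases. Hist2h3b shared 317 bases with H3f3a (77.13%) and 335 bases with H3f3b (81.51%), and its protein differs from H3.3 at 4 residues, the 3 above and residue 31. Within the coding sequence these genes can therefore be told apart by read, whereas processed pseudogenes of both H3.3 genes can still share their reads. The values of both genes are uncertain to that extent.

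Among the 25 histone H3 chaperones past the filter, the groups of factors did not move as 1 body. In the whole set of 13144 genes 20.6% were at least 4-fold higher with H3.3 mRNA and 13.8% at least 4-fold lower, and among the chaperones 3 were higher and 1 was lower. Supt16h, a subunit of the FACT complex that moves nucleosomes aside for polymerases, had 137 FPKM with H3.3 mRNA, against 4.07 FPKM in the untreated library, where it was lowest of the 5 libraries. Its FACT partner Ssrp1 stood at 603 FPKM with H3.3 mRNA and 783 FPKM in the untreated library. Atrx, the remodeller that works with DAXX, had 43.8 FPKM with H3.3 mRNA, against 2.76 FPKM in the knockdown and 2.44 FPKM in the untreated library. It also had 41.9 FPKM with luciferase and 26.3 FPKM with H3.2 mRNA. Chaf1a, the large subunit of CAF-1, had 408 FPKM with H3.3 mRNA, against 62.4 FPKM in the untreated library. Below the 4-fold mark, Hira had 285 FPKM with H3.3 mRNA and 93.4 FPKM in the untreated library, and its partners in the HIRA complex Ubn1 and Cabin1 had 97.6 and 205 FPKM with H3.3 mRNA, against 38.2 and 131 FPKM in the untreated library. All 3 of these thus listed the higher value with H3.3 mRNA. Ubn2, of the same family as Ubn1, was level, with 15.77 FPKM with H3.3 mRNA and 16.45 FPKM in the untreated library. Hira, Cabin1 and Ubn1 also exceeded their luciferase values of 73.6, 52.3 and 89.9 FPKM.

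Most other chaperones were level or listed lower with H3.3 mRNA. Rbbp7, a histone-binding subunit shared by several chromatin complexes, had 969 FPKM with H3.3 mRNA, against 3460.0 FPKM in the untreated library, and its relative Rbbp4 had 49.3 FPKM with H3.3 mRNA, against 112 FPKM in the untreated library. Daxx had 199 FPKM with H3.3 mRNA and 306 FPKM in the untreated library. Asf1a, which hands H3–H4 dimers to HIRA, had 29.1 FPKM with H3.3 mRNA and 60.5 FPKM in the untreated library, while Asf1b stood at 381 and 386 FPKM. The CAF-1 subunit Chaf1b was thus unlike Chaf1a, with 322 FPKM with H3.3 mRNA and 488 FPKM in the untreated library. Anp32a, an acidic nuclear phosphoprotein, was the 1 lower member, being listed at 0 with H3.3 mRNA and at 5.66 FPKM in the untreated library, and its paralogs Anp32b (747 with H3.3 mRNA and 1986 FPKM untreated) and Anp32e (183 with H3.3 mRNA and 364 FPKM untreated) were within the 4-fold mark. The nucleoplasmin-family gene Npm1 was the most abundant chaperone, at 9801 FPKM with H3.3 mRNA and 17305 FPKM in the untreated library. Set, another acidic chaperone, had 824 FPKM with H3.3 mRNA and 1443 FPKM in the untreated library, and Nasp, a store of free H3–H4, had 3032 FPKM with H3.3 mRNA and 2143 FPKM in the untreated library. The list's median difference was -0.35 on the log2 scale, against 0.00 over all genes. After upper-quartile rescaling it was 0.15, against 0.27 over all genes, so it stayed below that of all genes.

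Across all genes, the H3.3 mRNA library lay about as far from the untreated one as the other 3 libraries did. With H3.3 mRNA 2703 genes were at least 4-fold higher and 1816 at least 4-fold lower, which is 34.4% of genes in either direction, and 43.5% lay within 2-fold. The share at least 4-fold from the same untreated library was 36.8% with H3.2 mRNA, 32.5% in the knockdown and 36.9% with luciferase, so untreated and luciferase, the 2 libraries without a knockdown, differed from each other by as much. These comparisons share the untreated library. Across genes, which are not independent replicates, log2 values with H3.3 mRNA had a Pearson r of 0.835 with those of H3.2 mRNA, 0.803 with the knockdown, 0.829 with luciferase and 0.753 with the untreated library. The untreated library gave 0 for 1556 of the 2703 higher genes, and the H3.3 mRNA library gave 0 for 660 of the 1816 lower ones. Over the 9385 genes above 0 in both libraries 1147 (12.2%) were higher and 1156 (12.3%) lower, so the excess of higher genes rested on zeros of the untreated library. The H3.3 mRNA library listed 2054 of the 13144 genes at 0, 164 of them in no other library, and the untreated library 2951 and 727. Upper-quartile rescaling moved the median of all genes by 0.27 and gave 3166 higher and 1343 lower genes, so that 70.2% of the called genes were higher, against 59.8% on the values as deposited. Quantile normalization moved the median of all genes by -0.18. Upper-quartile rescaling divides each library by 1 factor, 0.94 for H3.3 mRNA and 1.33 for the untreated library. It therefore raises the difference of well expressed genes by nearly the same amount. List medians after this rescaling are to be read beside the 0.27 of all genes.

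From 10 FPKM upward the spread narrowed with level. Between a mean of 1 and 10 FPKM 27.5% of 3197 genes were higher and 13.8% lower, which is 41.3% in either direction, and between 10 and 100 FPKM 29.1% of 5122 genes were higher and 18.3% lower, or 47.3% in either direction. Between 100 and 1000 FPKM 7.9% of 4167 genes were higher and 10.2% lower, or 18.1% in either direction. Among the 658 genes over 1000 FPKM 6 (0.912%) were higher and 13 (1.98%) lower, or 2.89% in either direction. The 4-fold calls therefore came chiefly from genes under 100 FPKM, and among the abundant genes the 2 libraries were close. Since the scale adds 1 to each FPKM, it shrinks the apparent change of weakly expressed genes.

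**Figure D1:**
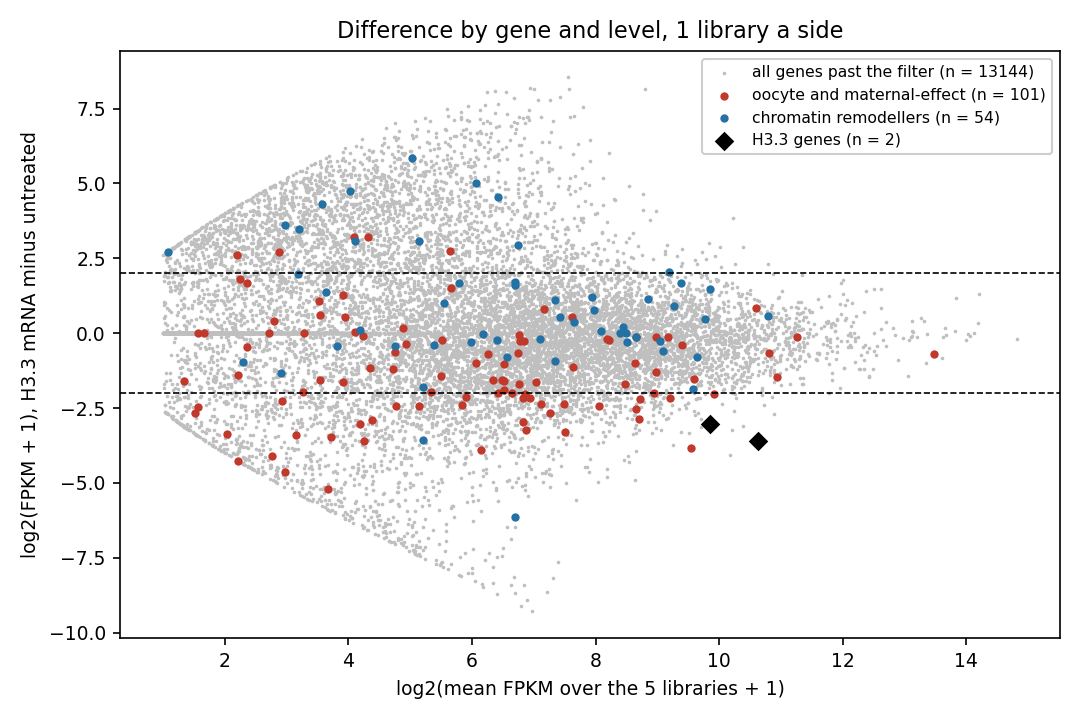
Difference of log2(FPKM + 1), H3.3 mRNA minus untreated, for each of the 13144 genes, against the log2 of the mean FPKM over the 5 libraries plus 1, with dashed lines at 4-fold. The oocyte genes (red, n = 101) lie mostly below 0, the chromatin remodellers (blue, n = 54) more often above it, and both H3.3 genes (black diamonds) lie under the lower line at -3.02 and -3.59.

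Transcript length moved with the difference. Among the shortest 20% of transcripts 16.9% were higher and 17.5% lower with H3.3 mRNA, and among the longest 20% 26.0% were higher and 9.73% lower, with a median difference of 0.47. The Spearman correlation of length with the difference was 0.13 across all genes with a length and 0.15 across the 6471 of them that averaged 50 FPKM or more. The part of fragment length, RNA quality or library preparation in this trend was not tested. With the trend removed the median became 0.16 for the nuclear pore and import list, -0.29 for mRNA storage and decay, 0.00 for the imprinted genes, -0.54 for sterol and lipid synthesis, -0.62 for trophectoderm and primitive endoderm and 0.01 for DNA methylation, and for 4 chromatin lists it is given with their counts. By chromosome the median difference lay between -0.05 on chromosome 12 and 0.16 on chromosome 19.

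**Figure D2:**
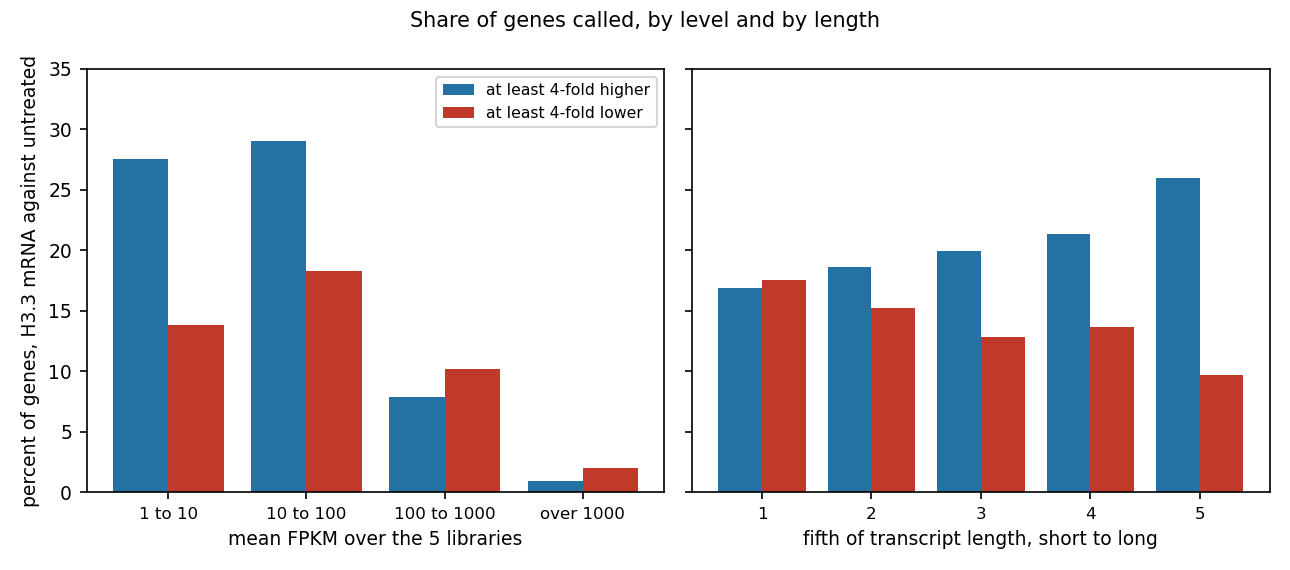
Percent of genes at least 4-fold higher (blue) and at least 4-fold lower (red) with H3.3 mRNA than in the untreated library, by mean FPKM over the 5 libraries (left) and by transcript length in 5 equal groups from short to long (right). Calls thin out above 100 FPKM, and the share of higher genes grows with length, to 26.0% in the longest group.

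Oocyte and maternal-effect genes were mostly lower with H3.3 mRNA. Of 101 past the filter 36 were at least 4-fold lower with H3.3 mRNA and 5 at least 4-fold higher, 79 listed a lower value in all, and the median difference was -1.46, against 0.00 over all genes. The median stayed between -1.59 and -0.96 under 10 other settings of filter, pseudocount and scaling. The same median against the untreated library was -0.68 with H3.2 mRNA, -1.35 in the knockdown and -2.47 with luciferase, so by this median the untreated library stood above each of the other 4. For 68 of the 101 genes the value with H3.3 mRNA lay between the luciferase and untreated values, for 15 above both and for 18 below both. As the libraries are bulk RNA, fewer cells or embryos with a transcript and less of it in each cannot be told apart.

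Among the genes of egg growth and egg shape, Zar1, which protects stored mRNA in the oocyte, had 64.4 FPKM with H3.3 mRNA, against 639 FPKM in the untreated library, and Gdf9, an oocyte growth factor that acts on the follicle, had 330.2 FPKM against 1332 FPKM. Mos, the kinase that holds eggs at the second meiotic metaphase, had 18.2 FPKM with H3.3 mRNA, against 289 FPKM in the untreated library. Bcl2l10, a BCL2-family survival factor of the egg, had 194 FPKM with H3.3 mRNA, against 2781 FPKM in the untreated library. Each of these 4 was at least 4-fold lower, Gdf9 just so with a difference of -2.01. The luciferase library listed them lower again, with 5.76 FPKM for Zar1, 81.2 FPKM for Gdf9, 59.4 FPKM for Bcl2l10 and 0 for Mos. Nobox and Lhx8, transcription factors of the early oocyte, were listed at 0 with H3.3 mRNA and at 9.47 and 9.43 FPKM in the untreated library. In the subcortical maternal complex, Ooep had 26.96 FPKM with H3.3 mRNA, against 146 FPKM in the untreated library, and Nlrp5 had 21.99 FPKM against 101 FPKM, whereas Padi6 stood at 191 FPKM with H3.3 mRNA and 130.2 FPKM in the untreated library. The 5 higher members were Gpr3, the receptor that keeps oocytes arrested in prophase (53.99 FPKM with H3.3 mRNA and 4.87 FPKM untreated), Zp2 of the egg coat (65.2 and 8.82 FPKM), Fbxw13 (18.3 and 1.92 FPKM), and Ptgs2 and E330017A01Rik, which the untreated library listed at 0 and the H3.3 mRNA library at 5.13 and 8.31 FPKM.

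Genes that store, cap or clear maternal mRNA did not lean one way as a list. Of 65 past the filter 7 were higher and 5 lower, with a median of 0.00. Of the 5 lower ones, Patl2, an RNA-binding repressor of translation, and Eif4e1b, an oocyte form of the cap-binding protein, were listed at 0 with H3.3 mRNA, against 35.9 and 18.3 FPKM in the untreated library, and Pabpc1l, the embryonic poly(A)-binding protein, had 3.96 FPKM with H3.3 mRNA, against 53.8 FPKM in the untreated library. Btg4, the adaptor that brings the CCR4–NOT deadenylase to maternal mRNA, had 189 FPKM with H3.3 mRNA, against 1389.9 FPKM in the untreated library, and Elavl2 was listed at 0, against 3.45 FPKM. Of the higher members, the AU-rich element binders Zfp36l1 and Zfp36l2 had 30.4 and 8.6 FPKM with H3.3 mRNA and were listed at 0 in the untreated library. Cpeb3, a regulator of cytoplasmic polyadenylation, had 44.1 FPKM with H3.3 mRNA, against 2.1 FPKM in the untreated library, and the uridylyl transferase Zcchc11 had 11.3 FPKM, against a listed 0.

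Lists of chromatin regulators had medians above that of all genes, while their shares of higher calls, between 15.6% and 29.4%, lay around the 20.6% of all genes. Of 54 chromatin remodellers 12 were higher and 2 lower (median 0.50), of 51 Polycomb and trithorax genes 15 and 3 (median 0.43), of 57 histone acetylation genes 12 and 5 (median 0.52) and of 32 genes of H3K9 and H4K20 methylation 5 and 1 (median 0.59), against 20.6% higher, 13.8% lower and a median of 0.00 over all genes. With the length trend removed the medians were 0.37, 0.28, 0.47 and 0.33 in the same order of lists, and all 4 stayed above 0 under the 10 other settings. The untreated library listed 6 of the 12 higher remodellers and 6 of the 15 higher Polycomb and trithorax genes at 0. Against the same untreated library, the remodellers' median was 0.51 with H3.2 mRNA, -0.23 in the knockdown and 0.66 with luciferase. The luciferase library thus also stood above the untreated one in this list.

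**Figure D3:**
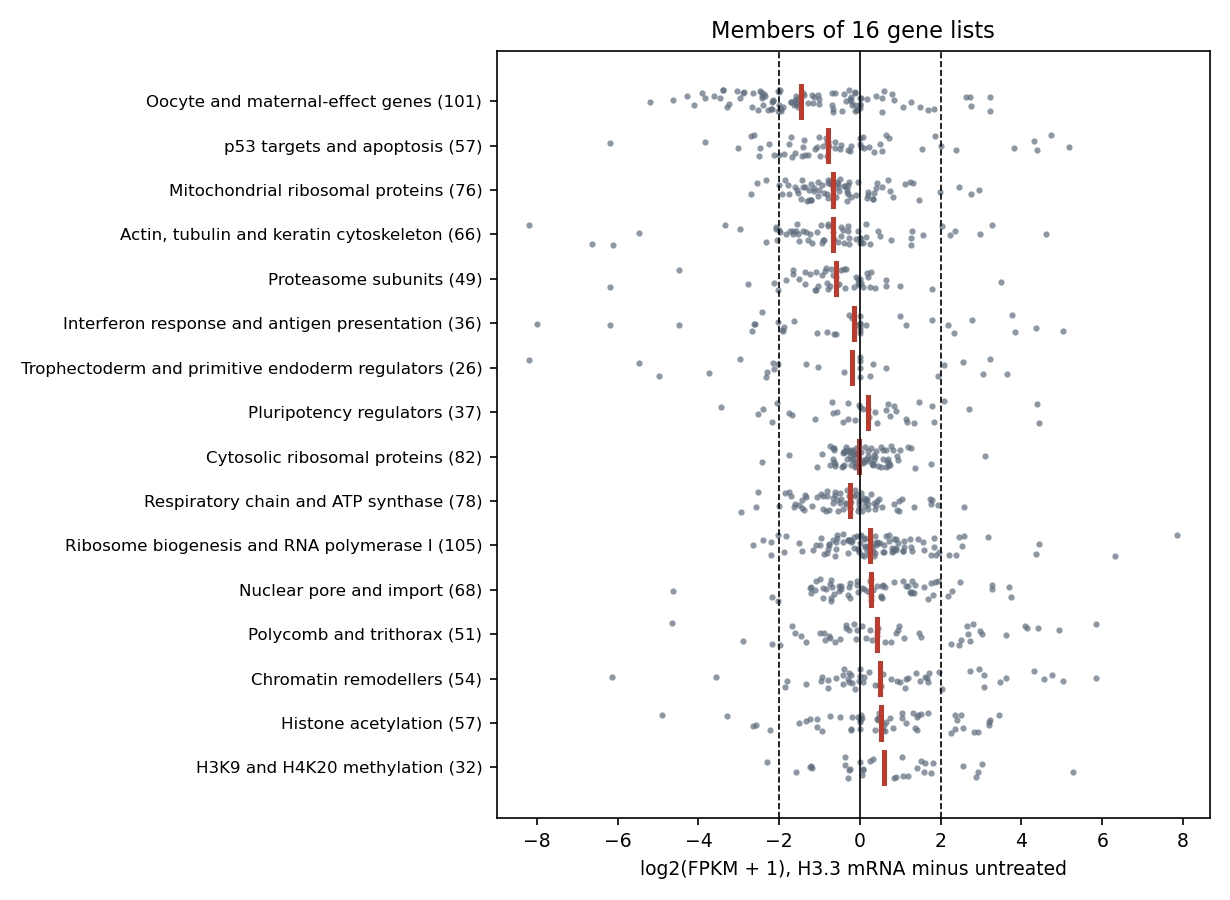
Difference of log2(FPKM + 1), H3.3 mRNA minus untreated, for each member past the filter of 16 of the 43 gene lists (grey points), with the list's median in red, the number of members in brackets and dashed lines at 4-fold. The oocyte genes have the lowest median of these lists at -1.46 and the H3K9 and H4K20 methylation genes the highest at 0.59, and single members of each list reach far to both sides.

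Among remodellers, Chd7, a CHD-family ATPase at enhancers, had 166 FPKM with H3.3 mRNA, against 6.06 FPKM in the untreated library. Chd1, a related ATPase that keeps chromatin open at active genes, had 207 FPKM with H3.3 mRNA, against 26.1 FPKM in the untreated library. Bcl7a, a small BAF subunit, had 109 FPKM with H3.3 mRNA, against 2.38 FPKM in the untreated library, and the BAF core subunit Smarcc2 had 26.2 FPKM, against a listed 0, as did the NuRD subunit Gatad2b with 56.5 FPKM. The other direction was taken by Smarcd3, another BAF subunit, listed at 0 with H3.3 mRNA and at 69.4 FPKM in the untreated library, and by Chd1l, a remodeller drawn to DNA damage, with 5.4 FPKM with H3.3 mRNA, against 74.1 FPKM in the untreated library. Subunits of 1 complex did not move together: Smarcc1, the paralog of Smarcc2, had 135 FPKM with H3.3 mRNA and 259 FPKM in the untreated library.

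In the Polycomb and trithorax list, Hcfc1, a scaffold of SET1 and MLL complexes, had 341 FPKM with H3.3 mRNA, against 10.2 FPKM in the untreated library. The H3K4 methyltransferase Setd1a had 124 FPKM with H3.3 mRNA, against 9.2 FPKM in the untreated library, and Mll3 had 66.5 FPKM against 9.63 FPKM. The H3K4 demethylases Kdm5b and Kdm5c, which act against these enzymes, were higher too, with 389 and 70.9 FPKM with H3.3 mRNA, against 48.7 and 10.4 FPKM in the untreated library. Writers and erasers of the same mark were thus both among the higher genes. Chromobox proteins of Polycomb repressive complex 1 went both ways. Cbx7 had 129.8 FPKM with H3.3 mRNA, against 5.17 FPKM in the untreated library, and Cbx8 had 56.8 FPKM, against a listed 0. Cbx2 and Cbx6 were lower, with 59.8 and 6.07 FPKM with H3.3 mRNA, against 272 and 51.6 FPKM in the untreated library, and Pcgf2, a ring finger protein of the same complex, was listed at 0, against 24.3 FPKM. Ezh1, the paralog of the H3K27 methyltransferase EZH2, had 107 FPKM with H3.3 mRNA, against 15.3 FPKM in the untreated library.

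Of the acetylation genes, Sirt6, an H3K9 deacetylase, had 215 FPKM with H3.3 mRNA, against 27.8 FPKM in the untreated library, and Brpf1, a scaffold of MOZ-type acetyltransferases, had 267 FPKM against 36.9 FPKM. The acetyltransferase MOZ itself, Myst3, had 16.1 FPKM with H3.3 mRNA, against 0.56 FPKM in the untreated library. The lowest member was the mitochondrial sirtuin gene Sirt5, listed at 0 with H3.3 mRNA and at 28.8 FPKM in the untreated library. The deacetylase gene Hdac10 was listed at 0 with H3.3 mRNA too, against 8.79 FPKM, and Sirt3, another mitochondrial sirtuin, had 18.7 FPKM with H3.3 mRNA, against 117 FPKM in the untreated library. Hdac3, the deacetylase of the NCoR complex, had 99.7 FPKM with H3.3 mRNA, against 469 FPKM in the untreated library, and the germ cell bromodomain gene Brdt had 54.2 FPKM against 346 FPKM. In H3K9 and H4K20 methylation, the H3K9 demethylases Kdm4b and Jmjd1c had 37.9 and 7.06 FPKM with H3.3 mRNA, against a listed 0 for both in the untreated library, and Phf8, which also erases this mark, had 49.3 FPKM, against 5.61 FPKM. The H3K9 methyltransferase Setdb1 stood at 492 FPKM with H3.3 mRNA and 172 FPKM in the untreated library. Kdm1b, the oocyte H3K4 demethylase, was the 1 lower member of that list, with 23.8 FPKM with H3.3 mRNA, against 121 FPKM in the untreated library.

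Of 34 genes of DNA methylation and demethylation 8 were higher and 3 lower, with a median of 0.36 that became -0.03 over members above 0 in both libraries. Dnmt3b, a de novo DNA methyltransferase of the embryo, had 117 FPKM with H3.3 mRNA, against 1.84 FPKM in the untreated library. Its oocyte cofactor Dnmt3l was lower, with 109.8 FPKM with H3.3 mRNA, against 505 FPKM in the untreated library. The 5-methylcytosine oxidase Tet1 had 20.5 FPKM with H3.3 mRNA and was listed at 0 in the untreated library, whereas Tet3, the form stored in the egg, had 9.78 and 20.1 FPKM. Tet3 was thus within the 4-fold mark. Dnmt3b had 33.9 FPKM with H3.2 mRNA, 25.8 FPKM in the knockdown and 68.6 FPKM with luciferase. Tet1 had 45.4, 3.7 and 35.3 FPKM in the same order of libraries. Both base-excision glycosylases for T:G mismatches were lower, Tdg with 4.54 FPKM and Mbd4 with 4.41 FPKM with H3.3 mRNA, against 22.9 and 29.8 FPKM in the untreated library. Apobec2 and Neil1 had 73.3 and 28.4 FPKM, against a listed 0. Among 41 imprinted genes 9 were higher and 4 lower. The median of 0.26 turned to -0.11 with quantile normalization and to -0.35 over members that averaged 50 FPKM or more. Of the higher ones, Meg3 and Mirg, both maternally expressed RNAs of the same cluster, had 90.95 and 27.6 FPKM with H3.3 mRNA and were listed at 0 in the untreated library. Igf2r, the receptor that clears IGF2, had 264 FPKM with H3.3 mRNA, against 49.7 FPKM in the untreated library. Cd81 was lower, with 252 FPKM, against 1395 FPKM, and Pon2 and Copg2 were listed at 0, against 113 and 25.7 FPKM.

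Histone genes other than those of H3.3 were few. Of 9 other variants 2 were higher and 2 lower: the macroH2A genes H2afy and H2afy2 had 49.97 and 3.12 FPKM with H3.3 mRNA and were listed at 0 in the untreated library, while the oocyte linker histone H1foo had 426 FPKM with H3.3 mRNA, against 1925 FPKM in the untreated library, and the centromeric H3 gene Cenpa had 163 FPKM against 723 FPKM. Their median of -0.23 turned to 0.27 after upper-quartile rescaling and to 0.12 with quantile normalization. Of 15 replication-dependent histone genes none was higher and 9 were lower, and the H3.3 mRNA library listed 8 of those 9 at 0. The median of -2.78 moved widely at these low levels, to -0.67 and -4.98 at pseudocounts of 10 and 0.1 FPKM, -1.02 at a mean of 5 FPKM or more, -1.06 over members above 0 in both libraries and -1.35 with no filter. The levels were low: Hist4h4 had the highest untreated value at 25.6 FPKM, followed by Hist1h1a at 24.1 FPKM and Hist2h2ac at 17.98 FPKM, and Hist1h1a was the only member with a higher value with H3.3 mRNA, at 45.9 FPKM. Transcripts of this class lack a poly(A) tail and their genes are near-identical copies of one another, so their values are uncertain, and the labels do not say whether the libraries selected for poly(A).

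Pluripotency regulators split between 4 higher and 5 lower of 37, with a median of 0.21. Pou5f1, the gene of OCT4, had 391 FPKM with H3.3 mRNA, 157 FPKM with H3.2 mRNA, 479 FPKM in the knockdown, 849 FPKM with luciferase and 1249.7 FPKM in the untreated library. Nanog was scarce at 9.59 FPKM with H3.3 mRNA and 21.8 FPKM in the untreated library, and Lin28a, a regulator of let-7 processing, had 20.5 FPKM against 96.1 FPKM. The Krüppel-like factor gene Klf5 was higher, as it had 309 FPKM with H3.3 mRNA and 72.01 FPKM in the untreated library, and Klf4, within the 4-fold mark, had 169 and 46.3 FPKM. Esrrb, an orphan nuclear receptor, and Mycn had 13.9 and 19.9 FPKM with H3.3 mRNA, against 1.29 FPKM and a listed 0 in the untreated library. The egg-supplied Tcl1 and Dppa5a were lower, with 125 and 769.5 FPKM with H3.3 mRNA, against 726 and 3199 FPKM in the untreated library. The Nodal coreceptor Tdgf1 was listed at 0, against 9.86 FPKM.

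Regulators and markers of trophectoderm and primitive endoderm were lower more often than higher, 10 against 5 of 26, and 8 members lay at least 4-fold below both the luciferase and untreated values, against 3.77% of all genes. Keratins of the first epithelium were among the lower members. Krt18 was listed at 0 with H3.3 mRNA and had 13.1 FPKM with H3.2 mRNA, 48.7 FPKM in the knockdown, 435 FPKM with luciferase and 290.4 FPKM in the untreated library. Krt8 had 22.5 FPKM with H3.3 mRNA, 44.8 FPKM with H3.2 mRNA, a listed 0 in the knockdown, 836 FPKM with luciferase and 184 FPKM in the untreated library. For Krt8 and Krt18 the 3 knockdown libraries lay under both libraries without a knockdown. Another keratin gene, Krt7, did not show that order, being listed at 0 in the H3.3 mRNA and H3.2 mRNA libraries and at 103 FPKM in the knockdown, 34.5 FPKM with luciferase and 43.1 FPKM in the untreated library. Dab2, an endocytic adaptor of the endoderm, had the order of Krt8 and Krt18, with 3.51 FPKM with H3.3 mRNA, 67.4 FPKM with H3.2 mRNA, 13.2 FPKM in the knockdown, 482 FPKM with luciferase and 140.5 FPKM in the untreated library. The matrix protein gene Sparc had 53.1 FPKM with H3.3 mRNA, against 719 FPKM in the untreated library, and the trophoblast factor Hand1 had 152 FPKM against 770.2 FPKM. The endoderm transcription factors did not follow their markers. Gata6 had 279.6 FPKM with H3.3 mRNA, against 47.03 FPKM in the untreated library and 223 FPKM with luciferase, Gata4 had 331 and 86.4 FPKM, and the trophectoderm factor Tead4 had 814 and 645 FPKM. The list's median was -0.20, and it was 0.00 after upper-quartile rescaling, -0.62 with the length trend removed and -1.69 over members that averaged 50 FPKM or more.

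Genes of epithelial junctions and ion transport, which the embryo needs to compact and form a cavity later on, gave 5 higher and 8 lower of 41 and a median of -0.34 that became 0.14 after upper-quartile rescaling. Pkp2, a desmosome plaque protein, had 22.3 FPKM with H3.3 mRNA, against 226 FPKM in the untreated library. Atp1b1, the sodium pump subunit of the trophectoderm, had 30.1 FPKM with H3.3 mRNA, against 295 FPKM in the untreated library. The tight junction gene Cldn6 had 201 FPKM against 864 FPKM, and the water channel Aqp3 had 59.4 FPKM against 247 FPKM. The Hippo kinase Lats2 had 102 FPKM with H3.3 mRNA and was listed at 0 in the untreated library, and Amot, an angiomotin of the same pathway, had 5.17 FPKM with H3.3 mRNA, against 53.9 FPKM in the untreated library. The polarity genes Pard6a and Pard6g parted, with 123 and 18.2 FPKM with H3.3 mRNA, against 13.5 and 106 FPKM in the untreated library.

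Genes of the actin, tubulin and keratin cytoskeleton had a median of -0.66 that stayed below 0 under the 10 other settings. Of 66 past the filter 6 (9.09%) were higher and 11 (16.7%) lower, against 13.8% lower of all genes. The list's median level was 173 FPKM. Of all genes between 100 and 1000 FPKM 7.9% were higher and 10.2% lower, with a median of -0.24. This list holds Krt8 and Krt18 as well, which were already counted above. Of its members 6 lay at least 4-fold below both the luciferase and untreated values, against 3.77% of all genes. Myl9, a regulatory myosin light chain, and the mesenchymal filament gene Vim were listed at 0 with H3.3 mRNA, against 98.8 and 68.7 FPKM in the untreated library. Tpm1, a tropomyosin, had 125 FPKM with H3.3 mRNA, against 1282 FPKM in the untreated library, and 3 beta-tubulin genes were lower, with 216 FPKM for Tubb6, 297 FPKM for Tubb5 and 88.96 FPKM for Tubb3 with H3.3 mRNA, against 1082, 1240.2 and 362 FPKM in the untreated library. The nuclear lamina gene Lmna was higher, as it had 286 FPKM with H3.3 mRNA, against 28.9 FPKM in the untreated library, and Lmnb1, which belongs to the nuclear pore and import list, had 46.1 FPKM against 3.91 FPKM.

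Genes of embryonic genome activation and the 2-cell state gave 8 higher and 5 lower of 40, with a median of -0.05 that became 0.27 after upper-quartile rescaling. The higher ones included BTB-domain genes of the Tdpoz family, of which Tdpoz2 had 81.8 FPKM with H3.3 mRNA and was listed at 0 in the untreated library, Tdpoz1 had 46.5 FPKM, against 1.19 FPKM, and Tdpoz4 had 129 FPKM, against 5.24 FPKM. Usp17l5, a deubiquitinase gene of a multicopy family, had 24.1 FPKM, against a listed 0. The lower ones included the homeobox genes Obox1, Obox2 and Obox5, with 77.9, 72.2 and 78.2 FPKM with H3.3 mRNA, against 351, 328 and 323 FPKM in the untreated library. Obox3 and Tdpoz3 were within the 4-fold mark, with 12.9 and 11.5 FPKM with H3.3 mRNA and 2.92 and 2.58 FPKM in the untreated library. Near-identical copies in these families share reads, so members do not count as separate observations. Zscan4d, a marker of the 2-cell state, was near the floor at 1.81 and 3.75 FPKM. Zfp352, which is active in the 2-cell embryo, had 137 FPKM with H3.3 mRNA and 396 FPKM in the untreated library, and Btg2, an antiproliferative gene that p53 also drives, had 203 FPKM against 1126 FPKM.

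Genes of p53 targets and apoptosis had a median of -0.80 that stayed between -0.88 and -0.29 under the 10 other settings. Of 57 past the filter 6 (10.5%) were higher and 9 (15.8%) lower, against 13.8% lower of all genes. The list's median level was 111 FPKM. Of all genes between 100 and 1000 FPKM 7.9% were higher and 10.2% lower, with a median of -0.24. Pmaip1, the gene of the killer protein NOXA, was listed at 0 with H3.3 mRNA and had 71.8 FPKM in the untreated library, and Bbc3, the gene of PUMA, had 90.4 FPKM with H3.3 mRNA and 308 FPKM in the untreated library. Casp9, the initiator caspase of the apoptosome, had 5.08 FPKM with H3.3 mRNA, against 48.6 FPKM in the untreated library. Some inhibitors of death were lower as well. Xiap, Birc2 and Birc3 had 8.06, 40.2 and 44.2 FPKM with H3.3 mRNA, against 54.9, 194 and 196 FPKM in the untreated library. The cell cycle inhibitors Cdkn1b and Cdkn2c had 1.68 and 5.47 FPKM with H3.3 mRNA, against 16.5 and 35.5 FPKM in the untreated library. On the higher side, Bad, a killer protein held in check by phosphorylation, had 206 FPKM with H3.3 mRNA, against 4.72 FPKM in the untreated library. The damage kinases Atm and Atr had 53.05 and 13.04 FPKM, against 9.3 FPKM and a listed 0.

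In the integrated stress response, 6 of 36 genes were higher and 5 lower, with a median of 0.00 that was -0.11 over members that averaged 50 FPKM or more, against -0.20 over all genes at that level. Ddit3, the gene of CHOP, had 375 FPKM with H3.3 mRNA, 262 FPKM with H3.2 mRNA, 497 FPKM in the knockdown, 262 FPKM with luciferase and 2494 FPKM in the untreated library. Nupr1, a stress-induced chromatin protein, had 785 FPKM with H3.3 mRNA, 520.5 FPKM with H3.2 mRNA, 2313 FPKM in the knockdown, 719 FPKM with luciferase and 5154 FPKM in the untreated library. For both genes the untreated library held the highest value of the 5 and the knockdown came next. Sqstm1, the autophagy receptor p62, had 604 FPKM with H3.3 mRNA, against 3097 FPKM in the untreated library. Atf5, a transcription factor of this response, and Cbs, an enzyme of cysteine synthesis, were the reverse, with 221 and 129 FPKM with H3.3 mRNA, against 3.84 and 2.42 FPKM in the untreated library. Stc2, a secreted stress gene, had 53.9 FPKM, against a listed 0.

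Of 81 genes of heat shock and folding in the endoplasmic reticulum 6 were higher and 7 lower, and the median of -0.39 became 0.07 after upper-quartile rescaling. Pdia6, a disulfide isomerase, had 51.2 FPKM with H3.3 mRNA, against 1034 FPKM in the untreated library and 462 FPKM with luciferase. The small heat shock gene Cryab was listed at 0 with H3.3 mRNA and had 179 FPKM in the untreated library, and Hspe1, a mitochondrial cochaperonin, had 224 FPKM, against 952 FPKM. Of the sensors of the unfolded protein response, Eif2ak3 (PERK) and Ern1 (IRE1) had 66.5 and 32.7 FPKM with H3.3 mRNA, against 10.4 and 7.06 FPKM in the untreated library, and Atf6, within the 4-fold mark, had 61.7 and 20.9 FPKM. Among 40 AP-1 and immediate early genes 10 were higher and 5 lower, with a median of 0.00. Nr4a2, Atf3 and Fosb had 52.5, 28.4 and 28.3 FPKM with H3.3 mRNA and were all listed at 0 in the untreated library, whereas Klf6 had 1.45 FPKM with H3.3 mRNA, against 37.8 FPKM.

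The interferon and antigen presentation list gave 7 higher and 8 lower of 36. The median of -0.14 became -0.61 over members that averaged 5 FPKM or more and -1.75 over those that averaged 50 FPKM or more. Genes of MHC class I loading were among the lower ones. B2m, the class I light chain, had 289 FPKM with H3.3 mRNA, 416 FPKM with H3.2 mRNA, 1213 FPKM in the knockdown, 250.5 FPKM with luciferase and 1851 FPKM in the untreated library. The loading factor Tapbp had 113 FPKM with H3.3 mRNA, against 696 FPKM in the untreated library, and the heavy chain H2-D1 had 85.4 FPKM against 521 FPKM. All 3 subunits that turn the proteasome into the immunoproteasome were lower. Psmb8 had 48.8 FPKM with H3.3 mRNA, against 1107 FPKM in the untreated library, while the other 3 libraries listed it at 0. Psmb9 had 71.8 FPKM in the untreated library and was listed at 0 with H3.3 mRNA and in every other library. It passed the filter through the untreated library alone and could not have been called higher. The same holds for Eif4e1b, Pdk2 and Otos. Psmb10 had 115 FPKM with H3.3 mRNA, against 476 FPKM. The virus-restriction gene Ifitm3 was listed at 0, against 254 FPKM, whereas its neighbour in the family Ifitm1 had 77.9 FPKM with H3.3 mRNA, against 4.84 FPKM. The ubiquitin-like modifier Isg15 had 31.7 FPKM with H3.3 mRNA and was listed at 0 in the untreated library, and Trim25 had 38.9 FPKM, against 0.94 FPKM, so not every interferon gene was lower.

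Housekeeping machines stayed close between the 2 libraries, and some leaned as a whole by less than 2-fold. Abundant genes in general were close too. Over 1000 FPKM 2.89% of all genes were called in either direction, with a median difference of -0.17. Between 100 and 1000 FPKM 18.1% were called, with a median of -0.24. Of 82 cytosolic ribosomal protein genes 1 was higher and 1 lower, with a median of -0.02 that became 0.48 after upper-quartile rescaling, while the same median against the untreated library was -1.13 with H3.2 mRNA, 0.63 in the knockdown and 0.12 with luciferase. The exceptions were Rpl39l, a testis-enriched copy of Rpl39, with 118 FPKM with H3.3 mRNA, against 12.8 FPKM in the untreated library, and Rpl31, with 56.5 FPKM against 307 FPKM, and these genes have many near-identical copies. Of 76 mitochondrial ribosomal protein genes 56 listed a lower value with H3.3 mRNA and 4 were at least 4-fold lower, with a median of -0.66, and of 49 proteasome genes 36 and 5 did, with a median of -0.58. Both medians stayed below 0 under the 10 other settings. Against the untreated library the mitochondrial ribosomal median was -0.64 with H3.2 mRNA, 0.70 in the knockdown and -0.36 with luciferase. Mrps14, of the small subunit, had 63.4 FPKM with H3.3 mRNA, against 415 FPKM in the untreated library, and Mrpl33, of the large one, had 249 FPKM against 1247 FPKM. Mrps30 and Mrps21 were the reverse, with 338 and 733 FPKM with H3.3 mRNA, against 42.6 and 109 FPKM in the untreated library. In the proteasome list the immune subunits above led the lower side, joined by the activator subunit Psme2 with 29.2 FPKM with H3.3 mRNA, against 204 FPKM in the untreated library, and by Psmd10 with 47.1 FPKM against 209 FPKM.

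Respiratory chain and ATP synthase genes gave 1 higher and 4 lower of 78 and a median of -0.26. That was close to the -0.24 of all genes between 100 and 1000 FPKM. The list's median became 0.25 after upper-quartile rescaling and 0.04 with quantile normalization. Ndufa8, an accessory subunit of complex I, had 363 FPKM with H3.3 mRNA, against 2183 FPKM in the untreated library. Uqcrfs1, the Rieske protein of complex III, had 169.8 FPKM with H3.3 mRNA, against 984 FPKM in the untreated library, and Uqcrh of the same complex had 858 FPKM, against 142 FPKM, so 2 subunits of complex III moved in opposite directions. Of 56 genes of glycolysis, pyruvate use and the TCA cycle 7 were higher and 3 lower, with a median of -0.16 that became 0.17 after upper-quartile rescaling. Pgk1, a glycolytic kinase, had 41.5 FPKM with H3.3 mRNA, against 169.5 FPKM in the untreated library. Pfkm had 44.4 FPKM with H3.3 mRNA, against a listed 0, and Pdk2, a brake on pyruvate entry, was listed at 0 with H3.3 mRNA, against 75.1 FPKM. Pdk2 was above 0 in the untreated library only. Me2, a mitochondrial malic enzyme, had 113 FPKM with H3.3 mRNA, against 9.12 FPKM in the untreated library.

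Ribosome biogenesis and RNA polymerase I genes had a median of 0.24 that stayed above 0 under the 10 other settings. Of 105 past the filter 10 (9.52%) were higher and 5 (4.76%) lower, both shares being under those of all genes. The list's median level was 512 FPKM, however. Of all genes between 100 and 1000 FPKM 7.9% were higher and 10.2% lower, so only the lower share was under that at its level. Bms1 and Utp20, factors of the small-subunit processome, had 394 and 195 FPKM with H3.3 mRNA, against 3.92 and 8.12 FPKM in the untreated library. Taf1c, a subunit of the polymerase I selectivity factor, had 382 FPKM with H3.3 mRNA, against 41.7 FPKM in the untreated library, and Rpp38, a protein of RNase P, had 231 FPKM, against a listed 0. Processome members did not all follow, since Utp11l had 401 FPKM with H3.3 mRNA, against 1853 FPKM in the untreated library. Of 100 genes of RNA polymerases II and III and their general factors 11 were higher and 4 lower, and the median was close to 0. Here Polr3b, the second largest subunit of polymerase III, had 141 FPKM with H3.3 mRNA, against 1.8 FPKM in the untreated library, and 2 parts of its initiation factor, Brf1 and Bdp1, had 142 and 42.8 FPKM, against 4.39 and 2.61 FPKM. The Mediator gene Med26 had 197 FPKM with H3.3 mRNA, against 6.52 FPKM in the untreated library. Small subunits were among the lower ones, with 32.1 FPKM for Polr3k and 3.05 FPKM for Taf10 with H3.3 mRNA, against 176 and 30.2 FPKM in the untreated library.

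Splicing, translation and nuclear transport were mostly within 4-fold. Of 99 spliceosome genes 6 were higher and 2 lower (median 0.10), of 66 translation factors 4 and 4 (median -0.20, and 0.30 after upper-quartile rescaling), and of 68 nuclear pore and import genes 7 and 3 (median 0.26). Snrnp200, the helicase that opens the U4/U6 duplex, had 300.2 FPKM with H3.3 mRNA, against 45.4 FPKM in the untreated library, and the U11/U12 protein gene Snrnp48 had 61.97 FPKM against 4.59 FPKM. Hnrnpa3, an RNA-binding protein, had 16.8 FPKM with H3.3 mRNA, against 137 FPKM in the untreated library. Among translation genes the growth kinase Mtor and its partner Rptor had 63.6 and 70.3 FPKM with H3.3 mRNA, against 9.3 and 12.2 FPKM in the untreated library, while their target Eif4ebp1, a repressor of cap binding, had 727 FPKM with H3.3 mRNA, against 3168 FPKM. Eif4ebp3, another gene of that repressor family, went with the kinase, with 97.2 FPKM, against a listed 0. Of 41 aminoacyl-tRNA synthetase genes 9 were higher and 2 lower, with a median of 0.14 that was -0.03 over members that averaged 50 FPKM or more. The mitochondrial enzymes Mars2 and Sars2 had 259 and 226 FPKM with H3.3 mRNA, against 2.53 and 3.98 FPKM in the untreated library. Aimp2, a scaffold of the cytosolic synthetase complex, had 2151 FPKM with H3.3 mRNA, 936 FPKM with H3.2 mRNA, 1669 FPKM in the knockdown, 1072 FPKM with luciferase and 149 FPKM in the untreated library, the lowest of the 5.

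Of 117 mitosis and cell cycle genes 16 were higher and 8 lower, with a median close to 0. Mad1l1, a spindle checkpoint protein, had 301 FPKM with H3.3 mRNA, against 4.38 FPKM in the untreated library, and the checkpoint kinase Ttk had 194 FPKM against 18.5 FPKM. Sgol1, which protects cohesin at centromeres in mitosis, had 92.3 FPKM with H3.3 mRNA, against 4.67 FPKM in the untreated library, while Smc1b, the meiotic cohesin subunit, had 4.36 FPKM against 37.9 FPKM. Fbxo43, the egg inhibitor of the anaphase-promoting complex, had 2.82 FPKM with H3.3 mRNA, against 29.03 FPKM in the untreated library. Anapc13 and Cdk6 were listed at 0 with H3.3 mRNA, against 35.4 and 26.7 FPKM in the untreated library, and Ccnd1 had 19.4 FPKM, against a listed 0. Of 66 DNA replication genes 5 were higher and 5 lower, with a median of -0.23 that became 0.27 after upper-quartile rescaling. Pcna, the sliding clamp, had 666 FPKM with H3.3 mRNA and 2644 FPKM in the untreated library, and Gins2, of the replicative helicase, had 27.2 FPKM against 388 FPKM. The small polymerase subunit gene Pold4 was listed at 0 with H3.3 mRNA, against 84.5 FPKM in the untreated library. The clamp-loader subunits parted, with 192 FPKM for Rfc4 and 212 FPKM for Rfc5 with H3.3 mRNA, against 15.2 and 955 FPKM in the untreated library.

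Of 82 signalling ligands and receptors 17 (20.7%) were higher and 16 (19.5%) lower, against 20.6% and 13.8% of all genes, with a median of 0.00. The H3.3 mRNA library gave 0 for 8 of the lower ones, and the untreated library gave 0 for 7 of the higher ones. Nodal, a TGF-beta ligand of the early embryo, was listed at 0 with H3.3 mRNA and at 35.2 FPKM in the untreated library, and Bmp8b had 4.44 FPKM with H3.3 mRNA, against 113 FPKM. Its relative Bmp6 had 90.8 FPKM with H3.3 mRNA, against 6.86 FPKM in the untreated library. Fgf1 had 9.48 FPKM with H3.3 mRNA, against 166 FPKM in the untreated library, while the receptor Fgfr1 had 47.4 FPKM against 6.08 FPKM. Of the Wnt genes, Wnt9a, Wnt11 and Wnt6 were listed at 0 with H3.3 mRNA, and Wnt7b and Wnt4 at 0 in the untreated library. All of these Wnt values were low, the highest being 28.1 FPKM for Wnt7b with H3.3 mRNA.

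In sterol and lipid synthesis 9 of 49 genes were higher and 5 lower, with a median of -0.29 that became 0.20 after upper-quartile rescaling. Plin2, the coat protein of lipid droplets, had 15.97 FPKM with H3.3 mRNA, 51.5 FPKM with H3.2 mRNA, 68.8 FPKM in the knockdown, 363 FPKM with luciferase and 369 FPKM in the untreated library. Both libraries without a knockdown thus held more of it than the other 3. Nsdhl and Idi1, enzymes of cholesterol synthesis, were lower, with a listed 0 and 34.6 FPKM with H3.3 mRNA, against 77.9 and 230.1 FPKM in the untreated library, and the lipid carrier Apoe had 128 FPKM, against 816 FPKM. The fatty acid synthase gene Fasn was higher, with 156 FPKM with H3.3 mRNA, against 24.5 FPKM in the untreated library. Of 68 lysosome and autophagy genes 8 were higher and 8 lower, and the median of -0.03 became 0.43 after upper-quartile rescaling. Uvrag, an activator of the autophagy lipid kinase, had 5.53 FPKM with H3.3 mRNA, against 178 FPKM in the untreated library, and the lysosomal enzyme Neu1 had 89.2 FPKM against 498 FPKM. Atp6v1a, the catalytic subunit of the proton pump, had 137 FPKM with H3.3 mRNA, against 8.6 FPKM in the untreated library, whereas its partners Atp6v1g1 and Atp6v1f had 233 and 338 FPKM, against 1214 and 1535 FPKM. Atg10, an enzyme that conjugates ATG12, had 106 FPKM with H3.3 mRNA and was listed at 0 in the untreated library.

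Markers that define other cell types were mostly at 0 in both libraries. The 9 markers fixed for oocyte and embryo were all above 0 in both, so the markers of the labelled tissue were present. All 7 defining fibroblast markers (Col1a1, Col1a2, Col3a1, Thy1, Pdgfra, Dcn and Lum) were listed at 0 with H3.3 mRNA and in the untreated library. Of the 8 for cumulus and granulosa cells, Tnfaip6 had 30.8 FPKM with H3.3 mRNA and 185 FPKM in the untreated library, Cyp19a1 was listed at 0 with H3.3 mRNA and at 4.25 FPKM in the untreated library, and the other 6 were at 0 in both. Of the 5 for blood and endothelium, Hbb-b1, Ptprc and Cdh5 were at 0 in both, while Hba-a1 had 15.8 and 9.46 FPKM and Pecam1 had 647 FPKM with H3.3 mRNA and 215 FPKM in the untreated library. The wider lists gave 4 higher and 4 lower of 15 fibroblast genes, 5 and 4 of 17 cumulus and granulosa genes, 3 and 2 of 15 blood and endothelial genes, 2 and 2 of 7 neural genes and 7 and 3 of 23 male germ line genes. The summed level of the fibroblast list was 491 FPKM with H3.3 mRNA and 837 FPKM in the untreated library, and that of the cumulus list was 958 and 992 FPKM. The summed level of the blood list was 1981 FPKM with H3.3 mRNA and 1109 FPKM in the untreated library, that of the neural list 114 and 392.2 FPKM, and that of the male germ line list 1467 and 2543 FPKM. In the fibroblast list, Timp1 (a protease inhibitor) had 12.6 FPKM with H3.3 mRNA, against 469 FPKM in the untreated library, and Fn1 (fibronectin) had 54.3 FPKM against 0.82 FPKM. The blood factor gene Nfe2 was listed at 0 with H3.3 mRNA, against 329 FPKM. In the male germ line list Iqcf1 had 148 FPKM with H3.3 mRNA, against a listed 0, and Dmc1, the meiotic recombinase, had 9.27 FPKM, against 82.8 FPKM. What other cells add to these values was not tested.

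Ranked over all genes above 0 in both libraries, the greatest excess with H3.3 mRNA was that of Slc39a11, a zinc transporter, with 286 FPKM with H3.3 mRNA, against 1.71 FPKM in the untreated library. In the other libraries it had 123 FPKM with H3.2 mRNA, 173 FPKM in the knockdown and 189 FPKM with luciferase, so the untreated library was the one that stood apart. The same held for Bms1, at 216, 109 and 318 FPKM with H3.2 mRNA, knockdown and luciferase, and for the homeobox gene Pou6f1, which had 165 FPKM with H3.3 mRNA, 44.2 FPKM with H3.2 mRNA, 38.1 FPKM in the knockdown, 112 FPKM with luciferase and 1.23 FPKM in the untreated library. Efhd1, a calcium-binding mitochondrial protein, had 369 FPKM with H3.3 mRNA, against 4.66 FPKM in the untreated library. The first 15 also held Mars2, Rtn2, Fam134c, Zfp947, Spata2, Tmem120b, Mad1l1, Sgpp1, Itgb7 and Clec10a. Of those named Zfp947, a zinc finger gene, was the one also low with H3.2 mRNA and in the knockdown, with 105 FPKM with H3.3 mRNA, 1.34 FPKM with H3.2 mRNA, 1.11 FPKM in the knockdown, 20.2 FPKM with luciferase and 0.78 FPKM in the untreated library. Of genes listed at 0 in the untreated library, S100a3, a calcium-binding protein gene, was highest with 371 FPKM with H3.3 mRNA, followed by Art5 with 292 FPKM and by Dpagt1, the first enzyme of N-glycan synthesis, with 287 FPKM. Each of these was above 0 in the other 3 libraries, with Dpagt1 at 271 FPKM with H3.2 mRNA, 244 FPKM in the knockdown and 141 FPKM with luciferase.

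At the other end, Zfp846, a zinc finger gene, had 1.95 FPKM with H3.3 mRNA, against 227 FPKM in the untreated library, and Nek6, a mitotic kinase, had 2.39 FPKM against 207 FPKM. Galnt6, which starts O-glycans, had 3.06 FPKM with H3.3 mRNA, 4.19 FPKM with H3.2 mRNA, 3.07 FPKM in the knockdown, 20.1 FPKM with luciferase and 222 FPKM in the untreated library. The G protein subunit gene Gng10 had 16.01 FPKM with H3.3 mRNA, against 802 FPKM in the untreated library. Several of these were high in the untreated library only: Oprl1, the nociceptin receptor gene, had 2.97 FPKM with H3.3 mRNA and 188 FPKM in the untreated library and 0 in the other 3, and Ldlrad3 had 1.96 FPKM with H3.3 mRNA, 2.91 FPKM with H3.2 mRNA, 2.22 FPKM in the knockdown, 0.80 FPKM with luciferase and 139 FPKM in the untreated library. The others of the lowest 15 were Mtrf1l, Prnd, Inpp4a, Rmnd1, Atp6v0e2, Ccdc84, Ypel1, Pcmtd1 and Pcdhga7, the last of which belongs to a cluster of near-identical genes. Of genes listed at 0 with H3.3 mRNA, 4 of the 8 with the highest untreated values were small nucleolar RNA genes: Snora70, Snord58b, Snord83b and Snord12, with 623, 548, 419 and 402 FPKM in the untreated library. They are between 66 and 137 bases long in the GENCODE annotation, little more than a read, a length at which few reads make a high FPKM. Over all 31 small nucleolar RNA genes past the filter, counted after these values were seen, 8 were listed at 0 with H3.3 mRNA and above 0 in the untreated library, 2 the other way, 18 at 0 in both and 3 above 0 in both. Of those 8, 4 were above 0 in the untreated library only, and 1 of the 2 in the H3.3 mRNA library only. Such genes passed the filter through that library alone, so the filter itself shapes this split. The 4 protein-coding genes among the 8 highest untreated values were Gnmt, a glycine methyltransferase, with 482 FPKM in the untreated library, Gmpr, a GMP reductase, with 409 FPKM, Otos with 359 FPKM and Pdlim4 with 339.6 FPKM. Otos too was above 0 in the untreated library only.

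Where the 2 libraries averaged 500 FPKM or more, Aimp2 had the greatest excess with H3.3 mRNA, a difference of 3.84. Pcyt2, an enzyme of phosphatidylethanolamine synthesis, had 2513 FPKM with H3.3 mRNA, against 345 FPKM in the untreated library, and Nsun2, an RNA cytosine methyltransferase, had 1194 FPKM against 170.0 FPKM. Strada, a partner of the kinase LKB1, had 954 FPKM with H3.3 mRNA, against 122 FPKM in the untreated library. In these 4 the luciferase, knockdown and H3.2 mRNA libraries were all above the untreated one, as for Nsun2 with 944 FPKM with H3.2 mRNA, 366 FPKM in the knockdown and 692 FPKM with luciferase. The other 4 of the first 8 were Zfp821, Surf2, Clybl and Uqcrh. On the lower side, Clic1, a chloride channel protein gene, had 30.5 FPKM with H3.3 mRNA, 12.4 FPKM with H3.2 mRNA, 249 FPKM in the knockdown, 32.04 FPKM with luciferase and 988 FPKM in the untreated library. Zbed3, an oocyte protein gene of the subcortical maternal complex in the mouse, had 292 FPKM with H3.3 mRNA, against 4895 FPKM in the untreated library and 42.95 FPKM with luciferase. The remaining 6 were Psmb8, Pdia6, Bcl2l10, the transcriptional corepressor subunit gene Drap1 (63.5 FPKM with H3.3 mRNA and 1214 FPKM untreated), the cobalamin carrier gene Tcn2 (50.9 and 961 FPKM) and Gipc1 (66.3 and 1146 FPKM).

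The H3.3 mRNA library was also set against the luciferase library, the only other library without a knockdown, which carries the SCNT label. With H3.3 mRNA 633 genes (4.82%) lay at least 4-fold above both the luciferase and untreated values and 495 genes (3.77%) at least 4-fold below both, or 8.58% in either direction, and for 45.1% of genes the value lay inside the range of those 2 libraries. Of the genes farthest above both and above 0 in these 3 libraries, Sla2, an adaptor that dampens lymphocyte receptors, had 45.9 FPKM with H3.3 mRNA, 14.2 FPKM with H3.2 mRNA, 1.86 FPKM in the knockdown, 1.02 FPKM with luciferase and 0.89 FPKM in the untreated library. Bfsp1, a lens filament gene, had 412 FPKM with H3.3 mRNA, 252 FPKM with H3.2 mRNA, 403 FPKM in the knockdown, 5.77 FPKM with luciferase and 30.2 FPKM in the untreated library. Bfsp1 and the sulfotransferase gene Tpst2 were thus high in all 3 knockdown libraries, with Tpst2 at 159.9 FPKM with H3.3 mRNA, 74.01 FPKM with H3.2 mRNA, 145 FPKM in the knockdown, 13.2 FPKM with luciferase and 4.82 FPKM in the untreated library. Sugp2, a splicing-related gene, was high with H3.3 mRNA only, with 41.5 FPKM with H3.3 mRNA, 3.53 FPKM with H3.2 mRNA, a listed 0 in the knockdown, 1.05 FPKM with luciferase and 0.26 FPKM in the untreated library. These genes also held Ina, Pcdhga6 and Tmem104.

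Of the genes farthest below both and above 0 in these 3 libraries, Nek6 had 2.39 FPKM with H3.3 mRNA, 14.7 FPKM with H3.2 mRNA, 8.39 FPKM in the knockdown, 115 FPKM with luciferase and 207 FPKM in the untreated library, and Dab2 and Plin2, given above, were also among the 8. Cd97, an adhesion receptor gene, had 4.05 FPKM with H3.3 mRNA, 24.3 FPKM with H3.2 mRNA, a listed 0 in the knockdown, 149 FPKM with luciferase and 168 FPKM in the untreated library. In all 8 genes, those named below included, both libraries without a knockdown lay above all 3 with one. The ranking itself placed the H3.3 mRNA value under both of them. It also favours genes with high values in both libraries without a knockdown, so the other knockdown libraries would tend to lie lower. How often this order occurs over all genes was not counted, so no conclusion is drawn from it. Anxa8, a membrane-binding annexin gene, was lower with H3.3 mRNA at 18.1 FPKM than with H3.2 mRNA (91.2 FPKM), in the knockdown (215 FPKM), with luciferase (380.4 FPKM) and in the untreated library (423 FPKM). Grtp1 had 11.2 FPKM with H3.3 mRNA, against 260.5 FPKM with luciferase and 189 FPKM in the untreated library, and 0 in the knockdown. Zfp846 and Ccdc84 complete the 8. With 1 library in each group and a NT or SCNT label that splits them, knockdown, mRNA and library cannot be told apart in these orders.

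**Figure D4:**
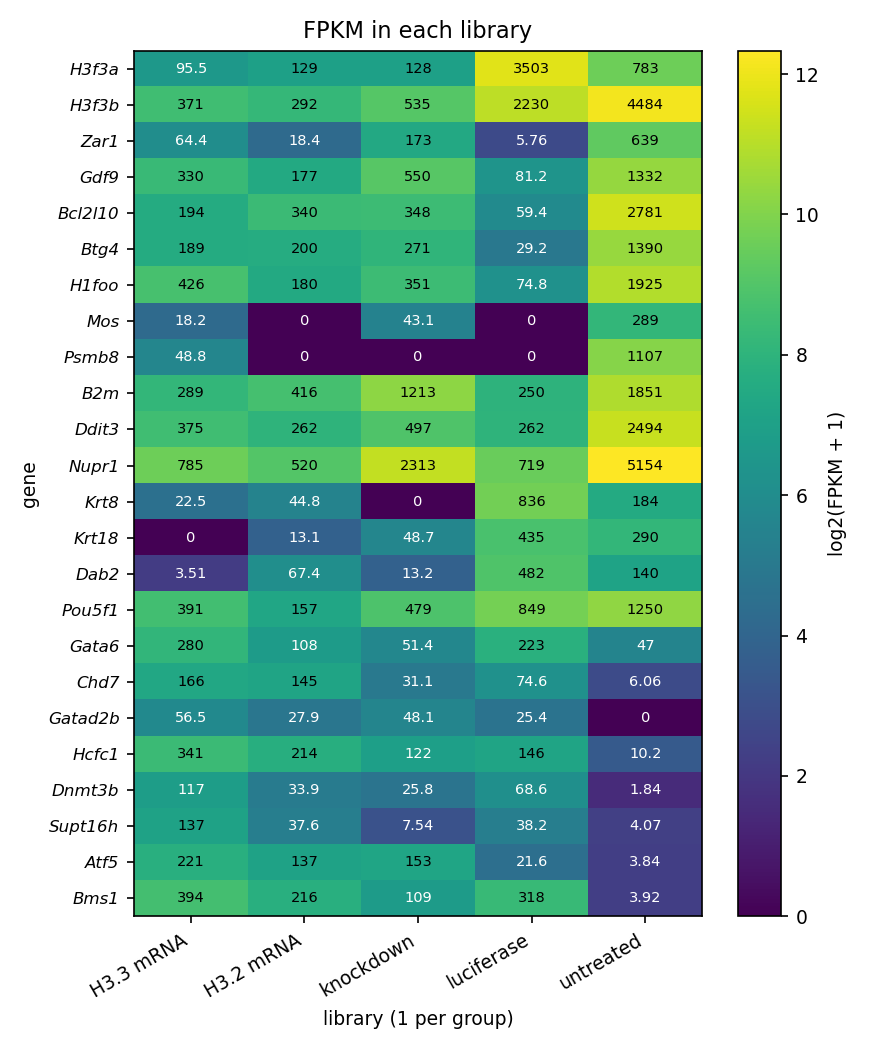
FPKM of selected genes in the 5 libraries, 1 per group, coloured by log2(FPKM + 1) with the FPKM printed in each cell. The H3.3 genes, egg genes, Ddit3 and Nupr1 are lower with H3.3 mRNA than in the untreated library, Krt8, Krt18 and Dab2 are lower than in both the luciferase and untreated libraries, and chromatin genes such as Hcfc1 (341 against 10.2 FPKM) are higher than in the untreated library.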

How the data were processed

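Deposited FPKM values, 1 per gene symbol for 22026 symbols in each of 5 libraries, were used as the authors made them. The submitters' processing notes name TopHat, Cufflinks and mm9, without versions or order. FPKM divides by transcript length and by library total, so abundant transcripts shift the share left to others and near-identical copies can trade reads. Depth is unknown: among 1139 genes under 20 FPKM no step worth 1 read was found (the fullest bin of 0.1 log2 units held 2.99% of them), so no count was recovered and no interval is given.

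The 13144 genes that averaged 1 FPKM or more over the 5 libraries were kept, and values were compared as log2(FPKM + 1). A gene was called higher or lower at 4-fold (2 on the log2 scale). The calling step was checked on simulated data with known changes, which tests its arithmetic and not the calls made on these libraries. The 43 gene lists held 2577 memberships, of which 2538 matched a symbol and 2225 passed the filter. Counts of higher and lower members of any list are to be read beside the 20.6% higher and 13.8% lower of all genes. Calls were fewer among abundant genes, so lists of such genes are also to be read beside the shares at their level. A gene above 0 in 1 library only passed the filter through that library alone. The members and lists were chosen with earlier results of these data known.

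Genes were named by rule, with clone and model symbols left out: the 15 highest and 15 lowest differences above 0 in both libraries, the 8 highest values listed at 0 in the other library, the 8 highest and 8 lowest at a mean of at least 500 FPKM, the 8 farthest above and below both the luciferase and untreated values (above 0 in all 3 libraries), all H3.3 genes and chaperones, and up to 4 members a list with the largest difference. Other list members named in the text were chosen after their values were seen. A few genes that meet the rule are not reported here. The alternatives were pseudocounts of 0.1 and 10 FPKM, no filter or means of at least 5 and 50 FPKM, genes above 0 in the compared libraries, 3 rescalings, removal of the length trend, and folds of 2 and 8.

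Transcript lengths, matched for 98.9% of genes, and H3 coding sequences came from GENCODE M21 (GRCm38), and chromosomes, matched for 99.2%, from RefSeq GRCm38.p6. As these builds differ from mm9, no coordinate is given. Python 3.11.15, numpy 2.4.6, pandas 2.3.3, scipy 1.17.1 and matplotlib 3.10.9 were used.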

Additional observations from a re-analysis of the deposited data

How the results depend on the processing

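The 2703 genes higher with H3.3 mRNA numbered 992 at a pseudocount of 10 FPKM, 683 at a mean of at least 50 FPKM, 1147 when above 0 in both libraries and 1785 at 8-fold. The 1816 lower genes numbered 1039, 716, 1156 and 922 in these settings and 3461 at 2-fold. The 633 genes above both the luciferase and untreated values numbered 113 at a pseudocount of 10 FPKM, 379 and 52 at means of at least 5 and 50 FPKM, 129 when above 0 in all 3 libraries, 1463 at 2-fold and 319 at 8-fold. The 495 genes below both numbered 115 at a pseudocount of 10 FPKM, 158 at a mean of at least 50 FPKM, 188 above 0, 1230 at 2-fold and 217 at 8-fold. These settings call fewer or more genes by construction. The other alternatives kept each of the 4 counts within 1.5 times. Among list medians at least 0.5 from 0, that of the blood and endothelial markers changed sign, to -0.19 with quantile normalization, and the cause was not tested. Over lists and settings, 391 other medians lay less than 0.5 from the reported one and 36 farther off. For the named genes 1926 differences lay less than 1 from the reported one and 312 farther off, and none of those called at 4-fold changed sign. No paired analysis was possible because each group has 1 library. Depth is unknown, so zeros and low values carry no known limit.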
